A study of Drosophila melanogaster with 3 samples.

Results

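The narrow Myc peaks on the distal chromosome arms were selected as short, candidate point-like binding sites. They come from a study that mapped Drosophila Myc in Kc167 cells by ChIP-seq, the sequencing of DNA that an antibody brings down with a protein. They were chosen by 2 measured values, position and width, from the authors' list of 9897 peaks in release 5 coordinates: a width under 450 bp, and a start below 21 Mb on 2L, below 22.38 Mb on 3L, above 2 Mb on 3R or below 20.42 Mb on X. This gave 298 peaks, 3.01% of the list and 60.1% of the 496 peaks of any width in the same windows. The other 198, of 450 bp or more, are called broad peaks below. Arms 2R and 4 are not part of the selection. In the whole list 3477 peaks were narrower than 450 bp, of which 2912 (83.8%) lay on the unplaced scaffolds U and Uextra.

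Kc167 is an established Drosophila melanogaster cell line of embryonic origin, labelled female with the genotype se/e and a late embryonic stage. The study holds 2 ChIP samples, made with the rabbit polyclonal antibody MycN against Drosophila Myc (gene dm), and 1 input sample of chromatin without immunoprecipitation. All samples come from this single line and share the same fixation. The measurement is 1 peak list for the whole series with 1 score per peak and no value per sample, so no replicate error, depth or test between samples can be given. Intervals below are exact 95% intervals that cover the counting of peaks only. Peaks near each other can be pieces of 1 enriched region and are not replicates, so no p-values across peaks were computed.

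Myc is a basic helix-loop-helix leucine zipper transcription factor that binds DNA as a dimer with Max, with a preference for the E box CACGTG. In Drosophila it is known for driving cell growth and ribosome production, and Mnt competes with it for Max. ChIP-seq of such a factor can give short peaks where it sits at a single site and wide ones where signal extends over a region. No genome of release 5 was used here, so the peaks were neither assigned to genes nor searched for E boxes.

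The narrow peaks were short and low in score. Widths ran from 201 to 446 bp around a median of 297 bp, with the middle of the distribution at 243 to 359 bp (interquartile range), and 53 of them were at most 225 bp wide. The narrowest width in the whole list is 201 bp, and 12 of the narrow peaks had it. Together they covered 90.2 kb, against 447 kb for the broad peaks in the same windows. The score is the authors' own value per peak, of unstated scale, and is used here only to describe and rank peaks within the list. Its median was 10.925 for the narrow peaks (interval 10.48 to 11.55) and 31.55 for the broad ones (28.4 to 34.86). Width and score come from the same ChIP measurement, so this difference describes the selection and was not tested.

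Few narrow peaks scored high. Only 14 of the 298 reached a score of 30 (4.70%, interval 2.59 to 7.76%), against 108 of the 198 broad peaks (54.5%, 47.3 to 61.6%). Among narrow peaks the wider classes held the higher scores: the median was 9.515 for the 86 peaks of 201 to 250 bp and 14.295 for the 34 peaks of 401 to 449 bp. No peak of 201 to 250 bp scored above 22.51. Spearman's rho between width and score was 0.39 across the 298 peaks, which share 1 list and 1 background, and is given as a description.

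**Figure D1:**
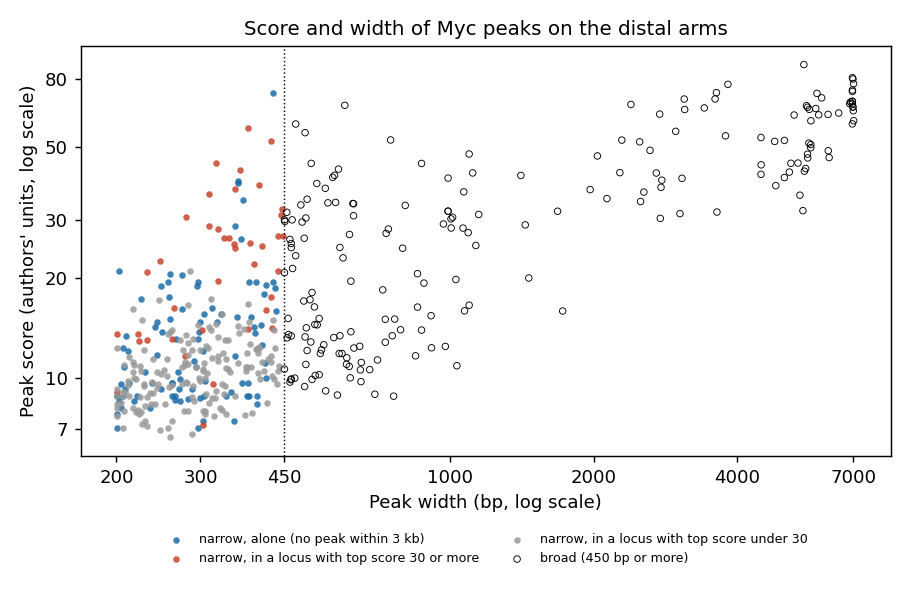
Width (bp, log scale) against score (authors' units, log scale) for the 298 narrow peaks, coloured by whether they stand alone, and the 198 broad peaks (open circles). The dotted line marks 450 bp; most narrow peaks lie near a score of 10, with a few alone or in high-scoring loci above 30.

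The width limit cuts through a continuous range. The widest narrow peaks were X 195800 to 196245 (446 bp, score 26.89), 3L 17515969 to 17516412 (444 bp, 32.36), 3L 4329955 to 4330397 (443 bp, 31.03), 2L 16141514 to 16141952 (439 bp, 10.85) and 3L 2109008 to 2109444 (437 bp, 10.49). Just outside it lay 3L 2111236 to 2111685 (450 bp, 10.65), 3L 9071272 to 9071721 (450 bp, 30.07), 3R 6060874 to 6061323 (450 bp, 20.83), X 3886885 to 3887335 (451 bp, 29.74) and 3L 11559201 to 11559655 (455 bp, 31.7). All 5 inside the limit, and 4 of the 5 outside it, had another peak within 500 bp. The scores on the 2 sides of the limit overlapped.

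Most narrow peaks were not isolated. Counting the bases between the edges of neighbouring peaks of any width, 91 of the 298 had no other peak within 5 kb (30.5%, interval 25.4 to 36.1%). The other 207 had one, and for 140 it was closer than 500 bp. The smallest gap between any peaks in the list is 50 bp. The distances fell into 2 groups with few values between them: 185 narrow peaks had a neighbour closer than 1 kb, 29 had their nearest neighbour at 1 to 10 kb and 84 at 10 kb or more. Broad peaks showed the same split, with 43 of 198 lacking a neighbour within 5 kb (21.7%, interval 16.2 to 28.1%). The interval of the narrow peaks overlaps that of the broad peaks, and their difference was not tested.

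**Figure D2:**
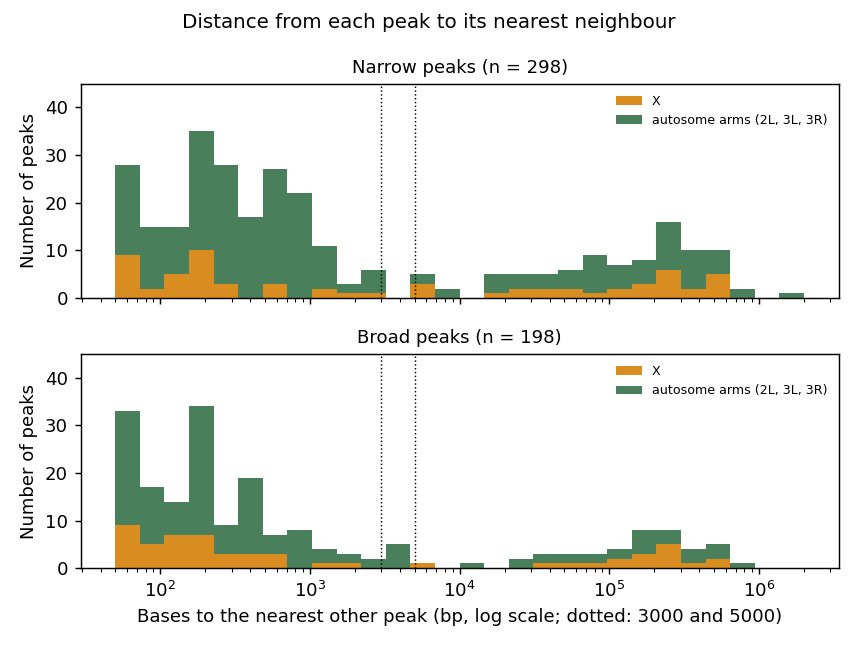
Number of narrow (top) and broad (bottom) peaks by the bases to the nearest other peak (bp, log scale), with X and the autosome arms stacked. Both classes have one group below about 1 kb and another above 10 kb, with few peaks near the dotted lines at 3000 and 5000 bp.

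Peaks closer than 3 kb were joined into loci to show what the crowded narrow peaks belong to. Of the 298, 93 stood alone (31.2%) and 205 belonged to 85 loci of several peaks. The nearest neighbour of these 205 was another narrow peak for 132 and a broad one for 73. The highest score within a locus separated the 85 loci into 59 that reached at most 21.05 and 26 that reached at least 32.06, with none between, and a division at 30, set after these values were seen, is used below. The 59 low-scoring loci held 165 narrow peaks and 61 broad ones. The 26 high-scoring loci held 40 narrow peaks and 67 broad ones. A locus is placed by its highest-scoring peak, so score differences between the kinds of loci follow in part from the division.

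The low-scoring loci were broken rows of small peaks. They spanned a median of 3371 bp (interquartile range 1868 to 4652.5 bp), held a median of 4 peaks, and peaks covered a median of 48.6% of the span. The median gap inside them was 457 bp. In 20 of the 59 every peak was narrow. The longest such row was at 2L 12934414 to 12939930, where 6 narrow peaks and no broad one lay in 5517 bp with a top score of 14.08. At 3L 2109008 to 2112531, 5 narrow peaks and 1 broad one lay in 3524 bp with a top score of 10.99. These 2 loci were chosen after their values were seen. For the narrow peaks in low-scoring loci the median score was 10.4 (interval 9.81 to 10.83) and the median width 288 bp.

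The high-scoring loci were nearly continuous. They spanned a median of 7285 bp (interquartile range 7203.25 to 7482.25 bp), the median gap inside them was 166 bp, and peaks covered a median of 92.5% of the span. Their narrow peaks had a median score of 23.655 (interval 16.32 to 26.89). Of these loci, 23 spanned 6.5 to 8 kb and held 34 of the 40 narrow peaks. An end of the locus was formed by 15 of these 34, with scores of 16.32 to 56.79 and a median of 28.86. Every locus of several peaks has end peaks by definition, whatever their width, so a place at an end is not particular to narrow peaks. The other 19 lay inside, with scores of 7.22 to 32.36 and a median of 16.03.

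Inside these loci, the positions of the narrow peaks were measured from the midpoint of the peak to the farther end of the locus. All but 1 of the 19 fell into 2 places: 10, in 10 different loci, lay 5906.5 to 6076.5 bp from the farther end, and 8 lay between 6500 and 6900 bp from it. The exception, 3R 11429753 to 11430031, lay at 4479 bp. The farther end was the low-coordinate one for 5 of the 10 and the high-coordinate one for the other 5. The loci of these 10 spanned 6865 to 7516 bp, so the same peaks lay 831.5 to 1438.5 bp from the nearer end. The 10 were 232 to 446 bp wide and scored 9.57 to 32.36. Examples at the first place were X 2744860 to 2745281 (6041.5 bp, score 17.61), 3L 17515969 to 17516412 (6037.5 bp, 32.36), 3R 11432795 to 11433230 (6032.5 bp, 26.96) and 3L 4329955 to 4330397 (6004 bp, 31.03). Of the 13 broad peaks narrower than 600 bp in the same loci, 5 also had their midpoint 5900 to 6100 bp from the farther end. The measure and the places were chosen after the peaks were seen, the loci have similar spans, and no test was made.

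**Figure D3:**
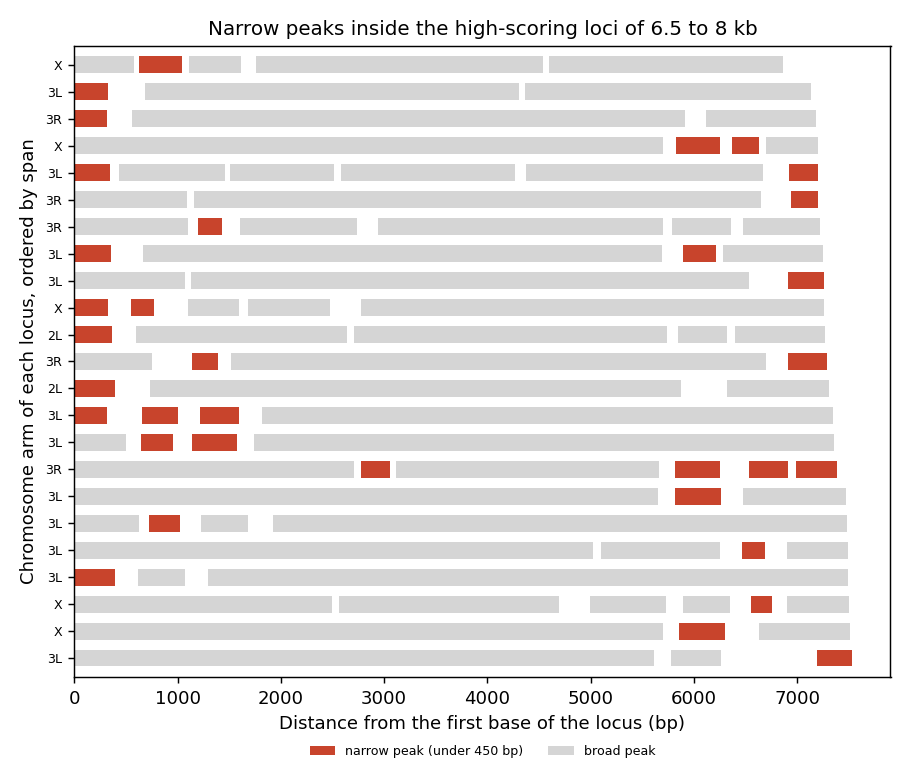
Peaks in the 23 high-scoring loci of 6.5 to 8 kb that hold narrow peaks, drawn from the first base of each locus (bp) and ordered by span, with narrow peaks in red and broad peaks in grey. Of the 34 narrow peaks, 15 form an end of a locus, and all but 1 of the other 19 lie over 5900 bp from the farther end.

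The highest-scoring narrow peaks came from both kinds of place. The top one was X 11134593 to 11135018, 426 bp wide with a score of 72.66 and 138 kb from the nearest other peak. It was followed by 3R 24006437 to 24006814 (56.79), X 13893682 to 13894102 (52.02), 3L 17724031 to 17724353 (44.67) and 2L 3202800 to 3203162 (42.49), each of which lay within 358 bp of another peak. These and the X peak above also include the highest-scoring narrow peak of each arm. Next came 2L 19582178 to 19582536 (39.4) and X 17451107 to 17451465 (38.93). Both stood alone, 228 and 336 kb from the nearest other peak, and both were 359 bp wide. The last 3 of the top 10 were 2L 4601732 to 4602128 (38.35), 3L 19110225 to 19110578 (37.35) and 3R 17586907 to 17587219 (35.9), each at the end of a locus of 7186 to 7309 bp. Of the 10, 3 stood alone and 7 were in loci. Those loci are high-scoring by definition, because each of the 7 itself scored above the division at 30.

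The 93 narrow peaks that stood alone are those closest to the idea of a point-like site. Their median width was 294 bp, their median score 11.66 (interval 9.64 to 13.83) and their median distance to the nearest other peak 146 kb. Broad peaks that stood alone, 48 in number, had a median score of 65.02 and a median width of 5389.5 bp. Width was used for the selection and comes from the same measurement as the score. This difference therefore describes the selection and was not tested. Besides the 3 lone peaks in the top 10, only X 5798778 to 5799146, 369 bp wide and 22.6 kb from the nearest peak, scored 30 or more, at 34.54. That peak was named after its values were seen. Of the 4 lone narrow peaks that scored 30 or more, 3 were on X and 1 on 2L. Over all 93, 29 were on X (31.2%). Distance and score were unrelated in rank among lone narrow peaks (Spearman's rho 0.01 over 93 peaks, given as a description).

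Of the 5 most isolated narrow peaks, 4 were on 3R, and their scores ran from 8.86 to 18.95. The peak at 3R 19897945 to 19898192 was 1620 kb from the nearest other peak, with a width of 248 bp and a score of 18.95. The next 3 were also on 3R: 12364623 to 12364910 at 913 kb (score 9.25), 18277546 to 18277746 at 683 kb (8.86) and 14434412 to 14434673 at 586 kb (8.86). The fifth was 2L 9393625 to 9393921, at 582 kb with a score of 13.16. The first and the fifth scored above the median of all narrow peaks and the other 3 below it. Over the 298 narrow peaks, 54 (18.1%) were 100 kb or more from any other peak.

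The narrow peaks were spread evenly over the lengths of the arms at a coarse scale. Each window was cut into 3 equal parts from the telomere side to the centromere side. The telomere part held 99 narrow peaks (33.2%, interval 27.9 to 38.9%), the middle part 100 (33.6%, 28.2 to 39.2%) and the centromere part 99 (33.2%, 27.9 to 38.9%). Broad peaks were divided 77, 61 and 60 over the same parts. For lone narrow peaks the parts held 26, 31 and 36, and the interval of each share includes an even share. On 3R the middle part held 32 of 75 narrow peaks and the centromere part 18. On X the parts held 19, 21 and 25 narrow peaks, and the broad peaks of X were divided 28, 13 and 15.

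At a finer scale the counts varied more. With each window cut into 10 equal bins, bin 1 at the telomere side, bin 10 of 2L held 17 narrow peaks and bin 3 of 2L held 1. On 3R bins 1 and 7 held 16 each, and on X bin 7 held 15. Of these, 4 were lone peaks in bin 10 of 2L, 3 in bin 1 and 6 in bin 7 of 3R, and 5 in bin 7 of X. The longest stretch without a narrow peak was 3.07 Mb on 3R, at 5671200 to 8746102, which held 4 broad peaks. The longest such stretches on the other arms measured 2.05 Mb on X, 1.99 Mb on 3L and 1.84 Mb on 2L.

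**Figure D4:**
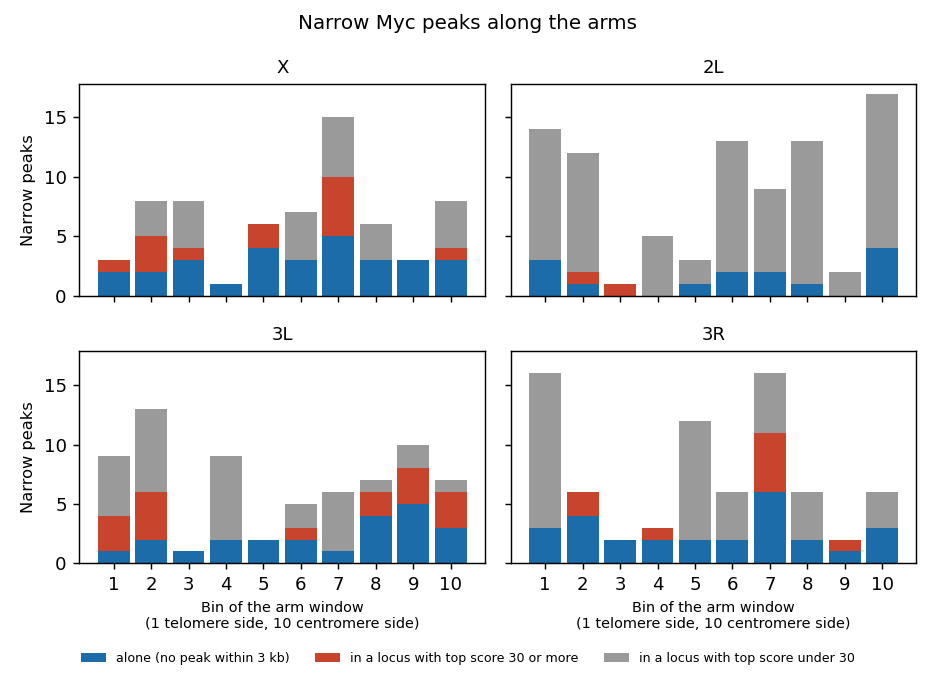
Number of narrow peaks in each of 10 equal bins of the arm window, from the telomere side (1) to the centromere side (10), for X, 2L, 3L and 3R. Colours show lone peaks and peaks in high-scoring or low-scoring loci; the tall bars on 2L and in bin 1 of 3R are mostly peaks of low-scoring loci.

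The share of narrow peaks on X was close to its share of the length. X had 65 of the 298 (21.8%, interval 17.3 to 26.9%) and 22.8% of the summed window length, or 3.18 per Mb (2.46 to 4.06), against 3.37 per Mb (2.95 to 3.83) on the 3 autosome arms. Among the autosome arms, 2L had 89 narrow peaks (4.24 per Mb), 3L had 69 (3.08 per Mb) and 3R had 75 (2.90 per Mb). Broad peaks numbered 56 on X (2.74 per Mb, 2.07 to 3.56) and 142 on the autosome arms (2.05 per Mb, 1.73 to 2.42). Narrow peaks made up 53.7% of the peaks in the window of X (44.4 to 62.8%) and 62.1% on the autosome arms (57.0 to 67.1%). These intervals overlap.

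The narrow peaks of X included a larger share of isolated peaks and a smaller share in low-scoring loci than those of the autosome arms. On X, 29 of 65 had no other peak within 5 kb (44.6%, interval 32.3 to 57.5%), against 62 of 233 on the autosome arms (26.6%, 21.1 to 32.8%). Low-scoring loci held 23 of 65 narrow peaks on X (35.4%, 23.9 to 48.2%) and 142 of 233 on the autosome arms (60.9%, 54.4 to 67.2%). Per Mb, low-scoring loci contributed 1.13 narrow peaks on X (0.714 to 1.69) and 2.05 on the autosome arms (1.73 to 2.42). Lone narrow peaks numbered 1.42 per Mb on X (0.951 to 2.04) and 0.925 per Mb on the autosome arms (0.712 to 1.18), with overlapping intervals. Broad peaks showed both differences in the same direction. No other peak lay within 5 kb of 17 of 56 broad peaks on X (30.4%, 18.8 to 44.1%) and 26 of 142 on the autosome arms (18.3%, 12.3 to 25.7%). On X 16.1% of broad peaks were in low-scoring loci (7.62 to 28.3%), against 36.6% on the autosome arms (28.7 to 45.1%). At a distance of 200 bp the direction for narrow peaks was the opposite, with no neighbour for 67.7% on X (54.9 to 78.8%) and 77.3% on the autosome arms (71.3 to 82.5%). Counts of peaks within a locus are not independent, so these intervals are too narrow for the peaks of loci, and none of these differences was tested.

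A single arm weighs on the autosome values. On 2L, 73 of 89 narrow peaks were in low-scoring loci (82.0%), 26 loci in all, and 12 of 89 had no neighbour within 5 kb (13.5%, interval 7.17 to 22.4%). On 3L and 3R, 23 of 69 (33.3%, 22.4 to 45.7%) and 27 of 75 (36.0%, 25.2 to 47.9%) had none, and both intervals overlap that of X. Low-scoring loci held 30 of 69 narrow peaks on 3L (43.5%, 31.6 to 56.0%) and 39 of 75 on 3R (52.0%, 40.2 to 63.7%). These intervals also overlap that of X. Per Mb this was 1.34 on 3L (0.904 to 1.91) and 1.51 on 3R (1.07 to 2.06), again overlapping X. Narrow peaks of high-scoring loci were 2 on 2L, 16 on 3L, 9 on 3R and 13 on X.

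The median score of narrow peaks on X was above or below that on the autosome arms, depending on the setting. Over all narrow peaks it was 12.1 on X (interval 10.51 to 13.64) and 10.83 on the autosome arms (10.37 to 11.24). For lone narrow peaks it was 13.09 on X (9.64 to 17.53) and 10.955 on the autosome arms (9.64 to 13.73). In low-scoring loci it was 10.4 on X and 10.4 on the autosome arms. In high-scoring loci it ran the other way, with 16.03 on X (13.1 to 26.89, 13 peaks) and 25.59 on the autosome arms (20.95 to 31.03, 27 peaks). The intervals overlapped in each of these settings. Peaks within a locus are not independent, so intervals that include peaks of loci are too narrow, and no difference was tested. On X 44.6% of narrow peaks stood alone, against 27.5% on the autosome arms, so the overall medians cover different mixtures of settings.

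**Figure D5:**
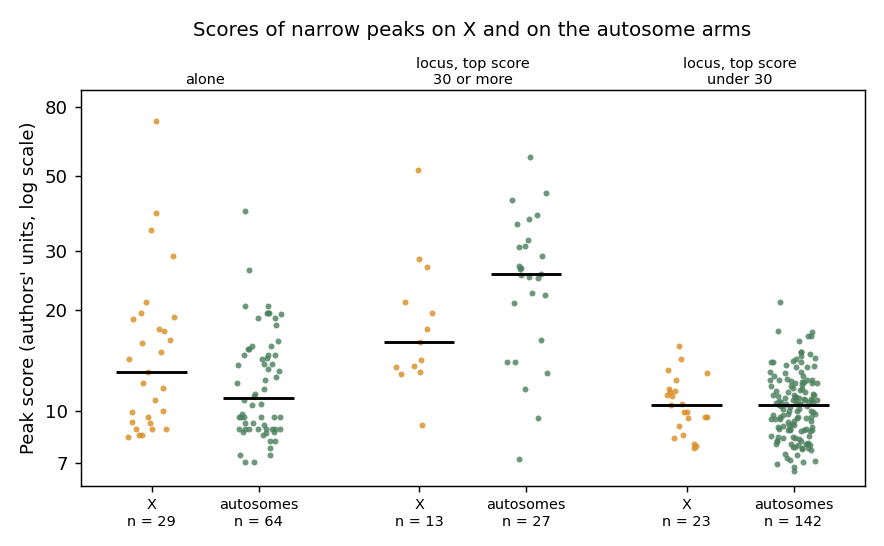
Score (authors' units, log scale) of each narrow peak, X beside the autosome arms, for peaks that stand alone, in loci with a top score of 30 or more, and in loci with a lower top score. Each point is 1 peak, horizontal bars are medians and sideways spread within a column has no meaning; the medians are 13.09 and 10.955, 16.03 and 25.59, and 10.4 and 10.4.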

How the data were processed

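Groups were taken from the sample titles (2 ChIP, 1 input). The peak list names FlyBase release 5 and MACS, per the file headers and its source column. CASAVA, BWA, MACS2 and build BDGP5 are named in the submitters' processing notes. The score of each peak is the authors' value, deposited without a stated scale. The threshold, any pooling of the ChIP samples, use of the input and treatment of reads with several matches are not stated in the labels, the processing notes or the header. Whether any of them affects how 1 enriched region is divided into short peaks was not tested.

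Widths, gaps between edges, loci (peaks closer than 3000 bp), positions and counts were computed with Python 3.11.15, NumPy 2.4.6, pandas 2.3.3 and SciPy 1.17.1, drawn with Matplotlib 3.10.9, and tested on simulated peaks. The window on 3R was taken to end at its last peak, 27830642. Shares have exact Clopper-Pearson intervals, densities exact Poisson intervals and medians exact order-statistic intervals, all at 95%. The depth is unknown. The members and lists were chosen with earlier results of these data known. Named peaks are the 10 highest scores, the highest of each arm, the 5 most isolated and the 5 on each side of the width limit; others are said to be chosen after their values were seen. The gene table used here follows release 6, so no peak was tied to a gene or sequence.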

Additional observations from a re-analysis of the deposited data

How the results depend on the processing

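No paired analysis was possible because each peak has only 1 score, shared by all samples, and leaving out a replicate was likewise not possible. The search for the E box was not run. The share of narrow peaks with no neighbour within 5 kb, 30.5%, depends on how pieces are counted. It was 57.6% after merging all peaks closer than 500 bp and, in a setting added after the data were seen, 68.4% without the peaks of low-scoring loci. In both the isolated peaks numbered 91, as reported, over 158 and 133 narrow peaks in place of 298, so these rises follow from removing crowded peaks. With narrow peaks closer than 3000 bp counted once, the share was 64.2% over 187 units. There the peaks inside a joined row no longer counted as its neighbours, so crowded rows could count as isolated. The share of narrow peaks was 37.9% at a distance of 1000 bp and 49.0% when only broad neighbours counted. Without the peaks of low-scoring loci, the share on X was 31.6% in place of 21.8%, and the median scores were 14.22 on X and 13.83 on the autosome arms. The medians were 15.64 and 14.06 when only scores at or above the median were kept, which follows from the selection, and that of the autosome arms was 12.34 with near narrow peaks counted once. The share in the centromere part stayed between 31.2 and 38.3%. The median score on X stayed above that on the autosome arms by 0.39 to 2.055 in the alternatives run. Of 48 values recomputed, 37 stayed within the interval of the reported one. For the difference in median score, 7 of the 37, the range used was -0.73 to 3.27. It was made from the bounds of the medians on X and the autosome arms and is not an exact interval. Depth is unknown and no replicate spread can be given.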

Other observations

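Lone narrow peaks shared exact score values with many other peaks of the list. Of the 93, 48 had a score found, to 2 decimals, in at least 15 peaks of the whole list (51.6%, exact 95% interval 41.0 to 62.1%). The same held for 18 of 165 narrow peaks in low-scoring loci (10.9%, 6.59 to 16.7%), 1 of 40 in high-scoring loci and 8 of 198 broad peaks (4.04%, 1.76 to 7.81%). Among broad peaks that stood alone it was 5 of 48 (10.4%, 3.47 to 22.7%). The most frequent value among the narrow peaks, 8.86, was carried by 14 of them, 11 of these alone, and by 48 peaks of the list. Other scores of lone narrow peaks were more frequent in the list, such as 21.13, found in 122 peaks. On X the share among lone narrow peaks was 13 of 29 and on the autosome arms 35 of 64. The share over all peaks of the list was not computed, so the trait cannot be called particular to lone narrow peaks. These values were looked at after the list had been examined and were not tested.

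The densest stretch within 1 Mb on each arm was chosen by its count of narrow peaks, a choice that favours loci of several peaks. Most narrow peaks there belonged to a few such loci. Over all narrow peaks, 205 of 298 (68.8%) were in loci of several peaks. On 2L, 15 narrow peaks lay at 19349262 to 20305425, 12 of them in 4 loci and 3 alone. On 3R, 12 lay at 10929452 to 11451874, within 0.522 Mb, 10 of them in 3 loci and 2 alone. On X, 12 lay at 13893682 to 14717032, 11 of them in 4 loci and 1 alone, including X 13893682 to 13894102, the narrow peak with the third highest score. On 3L, 10 lay at 2109008 to 2974082, 9 of them in 3 loci and 1 alone.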
